A study of Mus musculus with 3 samples.

Results

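The Toll-like receptor genes described here are 10 genes chosen by name, with earlier results of these data known. They are the receptor genes Tlr1, Tlr2, Tlr3, Tlr4, Tlr6, Tlr7 and Tlr9, the co-receptor gene Cd14, the adaptor gene Myd88 and the kinase gene Irak1. All 10 had a probe set among the 23185 probe sets with a gene name, of 25206 in all. They were read in long-term haematopoietic stem cells of mouse bone marrow, sorted for Kit, Sca and CD150 and against lineage markers, Flk2 and CD48, and held overnight in StemSpan SFEM, a serum-free medium, before irradiation. There were 3 groups of 1 array each: unirradiated cells (0 Gy), cells given 0.02 Gy of gamma radiation (low dose) and cells given 2.5 Gy (high dose), with RNA taken 2 hours later. The series set both doses against the unirradiated cells to ask how stem cells respond soon after low-dose exposure. Strain, age, sex and number of mice, and whether cells of several mice were pooled, are not stated in the labels. Without replicates no difference below could be tested: each compares 1 array with 1 other.

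Toll-like receptors are membrane proteins of innate immunity that recognise microbial molecules. TLR1, TLR2, TLR4 and TLR6 act at the cell surface on bacterial lipoproteins and lipopolysaccharide, while TLR3, TLR7 and TLR9 act in endosomes on nucleic acids. All of them except TLR3 signal through the adaptor MyD88, which recruits IRAK kinases and leads to activation of NF-κB; TLR3, and TLR4 in part, use the adaptor TRIF. Haematopoietic stem cells are known to carry some of these receptors and to respond to their ligands directly.

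The promoter sequences below are shown because the values are later set beside a motif in them: Tlr2 holds it, Tlr6, Tlr9 and Irak1 do not, and Nfkbia, the gene of the NF-κB inhibitor IκBα, is given for contrast. Each is the 250 bases before a RefSeq transcription start (GRCm38.p6), written 5′ to 3′ on the gene's strand. Capitals mark matches, on either strand, to the decamer bound by NF-κB. Where RefSeq gives a gene several starts, as for Tlr6 and Irak1, 1 is printed and all were searched. RefSeq promoters were used for 7 of the 10 genes. Tlr4 and Tlr7 were not matched, while Cd14 was left out by choice and not searched.
Tlr2 (chr3:83841609-83841858, minus strand): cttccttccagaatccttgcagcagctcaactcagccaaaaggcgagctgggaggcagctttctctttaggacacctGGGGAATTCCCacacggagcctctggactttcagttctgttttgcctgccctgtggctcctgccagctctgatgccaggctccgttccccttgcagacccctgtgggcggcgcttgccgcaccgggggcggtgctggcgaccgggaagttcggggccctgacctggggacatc
Tlr6 (chr5:64959167-64959416, minus strand): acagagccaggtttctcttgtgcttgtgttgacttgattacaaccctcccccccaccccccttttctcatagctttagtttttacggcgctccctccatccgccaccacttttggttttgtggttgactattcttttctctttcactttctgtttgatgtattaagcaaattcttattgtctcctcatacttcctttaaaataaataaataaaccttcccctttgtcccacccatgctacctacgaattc
Tlr9 (chr9:106222348-106222597, plus strand): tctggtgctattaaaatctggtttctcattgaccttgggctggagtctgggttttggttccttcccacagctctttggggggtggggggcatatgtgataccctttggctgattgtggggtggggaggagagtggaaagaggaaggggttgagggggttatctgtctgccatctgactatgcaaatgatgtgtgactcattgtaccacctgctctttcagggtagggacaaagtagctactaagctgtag
Irak1 (chrX:74023922-74024171, minus strand): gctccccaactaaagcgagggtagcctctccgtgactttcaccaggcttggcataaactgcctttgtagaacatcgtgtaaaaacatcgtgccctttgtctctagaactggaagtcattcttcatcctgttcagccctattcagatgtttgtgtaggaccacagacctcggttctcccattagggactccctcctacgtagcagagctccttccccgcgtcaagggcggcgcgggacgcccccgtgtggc
Nfkbia (chr12:55492648-55492897, minus strand): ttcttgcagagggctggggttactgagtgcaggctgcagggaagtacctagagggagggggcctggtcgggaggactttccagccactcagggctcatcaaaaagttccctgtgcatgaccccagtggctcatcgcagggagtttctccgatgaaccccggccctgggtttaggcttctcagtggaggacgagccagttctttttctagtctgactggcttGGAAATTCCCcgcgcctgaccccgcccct

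The NF-κB decamer was found before the starts of Tlr2 and Tlr3, among the 7 genes whose promoters were used. In Tlr2 there were 2 overlapping matches, whose leftmost bases lie 173 and 172 bases before the start. No match was found before the starts of Tlr1, Tlr6, Tlr9, Myd88 or Irak1. Over all 27025 genes with a promoter of this length, 4.46% held the decamer. A match describes letters in the window and is not evidence of binding.

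The values are deposited log2 values, on which a difference of 1 is 2-fold. Genes whose 3-array mean reached 4.553, which is the median over named genes, are called past the level minimum; there were 11593 of them. Of the stem cell identity genes, 13 of 13 measured were past the level minimum (among them Kit, Procr, Mecom, Hlf and Vwf), against 0 of 5 measured T cell markers; of the sort's negative markers, Cd48 lay below it and Flt3, the Flk2 gene, past it. Of the markers of cells rich in Toll-like receptors, 6 of 8 monocyte and macrophage genes, 6 of 10 neutrophil genes, 7 of 8 dendritic cell genes and 2 of 5 B cell genes were past the minimum, although a value past it need not be above background. Array medians were 4.60, 4.54 and 4.55 in the order unirradiated, low dose and high dose, an order kept below.

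Of the 10 genes, 5 were past the level minimum: Tlr2, Tlr4, Tlr6, Tlr9 and Irak1. All 4 of these receptor genes were at their lowest on the high-dose array, whereas Irak1 was at its highest there. Over all genes past the minimum, 30% were lowest and 33% highest on that array. The other 5 genes (Tlr1, Tlr3, Tlr7, Cd14 and Myd88) lay below the minimum on each array. As signal over background is not known for these arrays, it cannot be said whether the lower genes were detected. Myd88 came closest to the minimum from below, with a mean of 4.24, and Tlr9 from above, with 5.01.

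**Figure D1:**
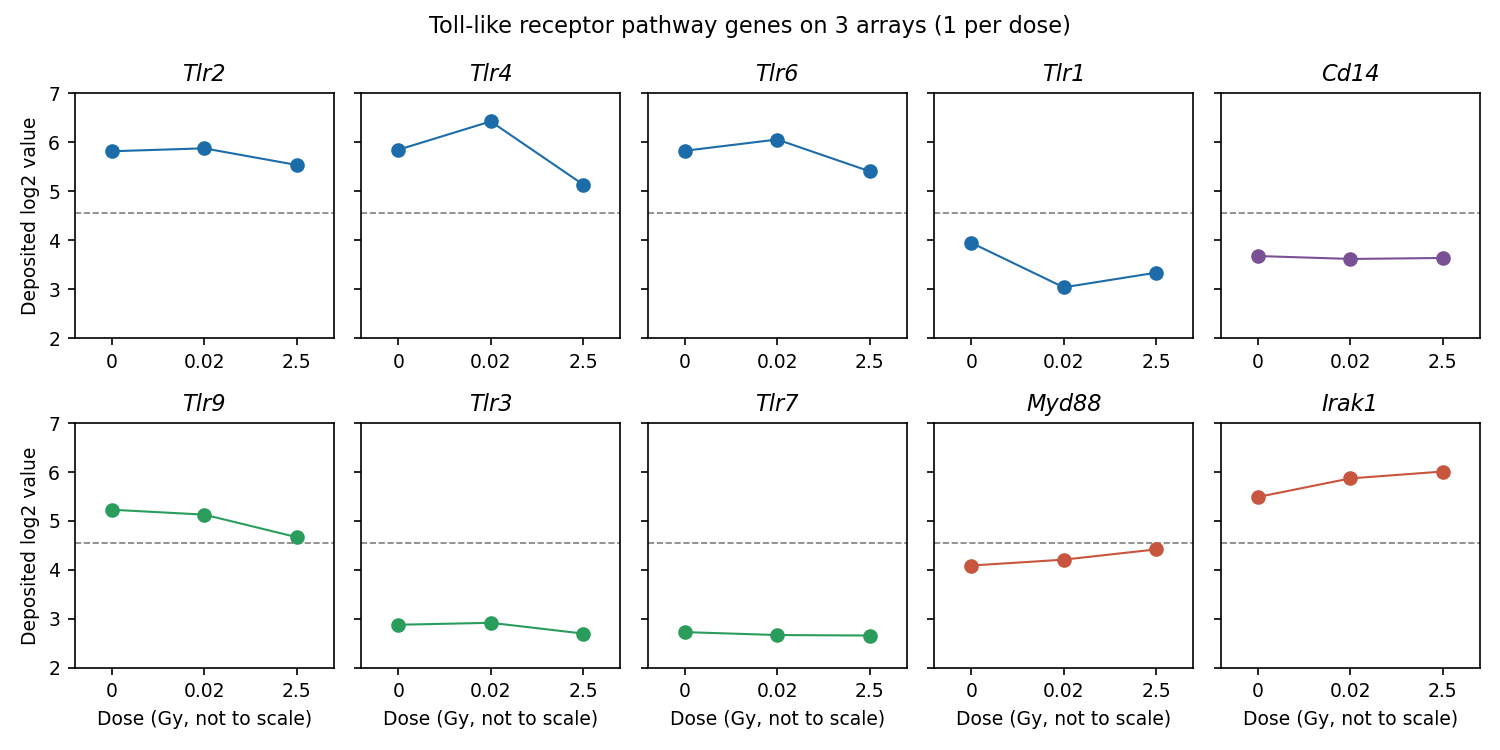
Deposited log2 value (vertical axis) of each gene on the unirradiated, 0.02 Gy and 2.5 Gy arrays (horizontal axis, not to scale). Each point is 1 array, so there is no error bar, and the dashed line is the level minimum of 4.553; surface receptors are blue, Cd14 purple, endosomal receptors green, and the adaptor and kinase red. Tlr2, Tlr4, Tlr6 and Tlr9 are lowest at 2.5 Gy and Irak1 is highest.

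Tlr4, the receptor for lipopolysaccharide, varied most of the 10 genes, over a range of 1.29. Its level was 5.85 unirradiated, 6.43 after 0.02 Gy and 5.14 after 2.5 Gy. The low-dose array was thus the high one and the high-dose array the low one, with the unirradiated cells between them. Against unirradiated cells it was 0.58 higher after 0.02 Gy, and after 2.5 Gy it differed by −0.71, a 1.63-fold lower value. High dose minus low dose was −1.29, or 2.45-fold lower. As a yardstick in place of replicate error, the central 90% of genes of like level (the same level decile of all named genes) spanned −0.64 to 0.63 in high dose minus low dose and −0.48 to 0.65 in high dose minus unirradiated. Tlr4 lay below both spans, and inside that of the low dose (−0.53 to 0.71). In RNA of a whole sort, fewer cells with a transcript and less of it per cell cannot be told apart.

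Tlr4 was the single gene of the 5 past the minimum that differed by at least 2-fold in any comparison. It did so between the doses, where 1.06% of all genes were at least 2-fold lower. In low dose minus unirradiated and in high dose minus unirradiated, 0 of the 5 did, against 2.47% and 1.73% of all genes in either direction. At 1.5-fold, Tlr4 alone was called at the high dose (9.51% of all genes) and Tlr4 and Tlr6 between the doses (11.4%). At the low dose 0 were called (12.2%), with Tlr4 just short of the cut at 0.58. With so few genes, these shares do not set them apart from the rest of the array. By the distance between pairs of dose differences over the 3 arrays, the genes nearest to Tlr4 were Gpx2-ps1 (distance 0.128), Rsad2 (0.154) and Lax1 (0.186). Genes below the minimum were left out, as were predicted and clone-named genes. So were multigene families such as olfactory receptor, Zfp, ribosomal protein and small RNA genes. Rsad2, an interferon-induced antiviral gene, read 5.29, 5.88 and 4.74.

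Tlr2 and Tlr6 encode receptors that pair with each other on diacylated lipoproteins. Tlr6 read 5.83, 6.06 and 5.41, in the same order of arrays as Tlr4 but over a narrower range of 0.64. Its differences from unirradiated cells were 0.23 after 0.02 Gy and −0.41 after 2.5 Gy, both inside the central 90% of genes of like level. High dose minus low dose was −0.64, 1.56-fold lower and at the lower edge of that span. Tlr2 read 5.82, 5.88 and 5.54, so that the first 2 arrays were close and the high-dose array lower. Its differences were 0.07 after 0.02 Gy and −0.27 after 2.5 Gy, inside the spans of genes of like level, as was −0.34 between the doses. The sign at the low dose turned with scaling, to −0.01 after quantile normalization.

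Tlr1, the other partner of Tlr2, read 3.95, 3.04 and 3.34, below the minimum on every array. It was highest on the unirradiated array, unlike Tlr2, Tlr4 and Tlr6. Its differences of −0.91 and −0.61 lay below the spans of genes of like level (−0.65 to 0.47 after 0.02 Gy and −0.58 to 0.43 after 2.5 Gy). Tlr1 and Tlr6 are close paralogs, and how the probes of each were kept apart is not stated in the labels. Cd14, the co-receptor that passes lipopolysaccharide to TLR4, read 3.68, 3.62 and 3.64, a range of 0.06 over the arrays. This was the smallest range of the 10 genes, and the signs of its differences turned with the scaling (at the high dose −0.05 as deposited and 0.02 after quantile normalization or loess).

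Among receptors of the endosome, Tlr9, which binds unmethylated CpG DNA, read 5.23, 5.13 and 4.67. The unirradiated and low-dose arrays were close and the high-dose array was the low one. The difference at the high dose was −0.56, 1.48-fold lower and just below the span of genes of like level (−0.54 to 0.55), while at the low dose it was −0.11. Tlr3, the receptor for double-stranded RNA, read 2.88, 2.92 and 2.70, and Tlr7, the receptor for single-stranded RNA, read 2.73, 2.67 and 2.66. Both lay far below the minimum, with ranges of 0.22 and 0.08. For Tlr7 the sign at the low dose turned after median centring, from −0.06 to 0.01.

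The signalling genes Irak1 and Myd88 were lowest on the unirradiated array and highest on the high-dose array. Irak1, the kinase that MyD88 recruits, read 5.49, 5.87 and 6.01. Both irradiated arrays were above the unirradiated one, by 0.37 after 0.02 Gy and by 0.52 after 2.5 Gy (1.43-fold), inside the spans of genes of like level. Myd88 read 4.09, 4.21 and 4.42, with differences of 0.12 and 0.34, all below the level minimum and inside the spans. None of the other 8 genes was highest at the high dose.

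Together, the 5 genes past the minimum had a median difference of 0.23 after 0.02 Gy, −0.41 after 2.5 Gy and −0.46 between the doses. The medians of all genes past the minimum were 0.04, 0.02 and −0.00. For all 10 genes they were 0.05, −0.23 and −0.12. At the high dose 4 of the 5 were below 0, against 46.4% of all genes, and at the low dose 4 of the 5 were above 0, against 54.2%. Both dose comparisons share the unirradiated array, so they are not separate evidence. The 4 receptors were also all below 0 between the doses, against 50.4% of all genes. This follows from their being lowest on the high-dose array and adds nothing to it.

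**Figure D2:**
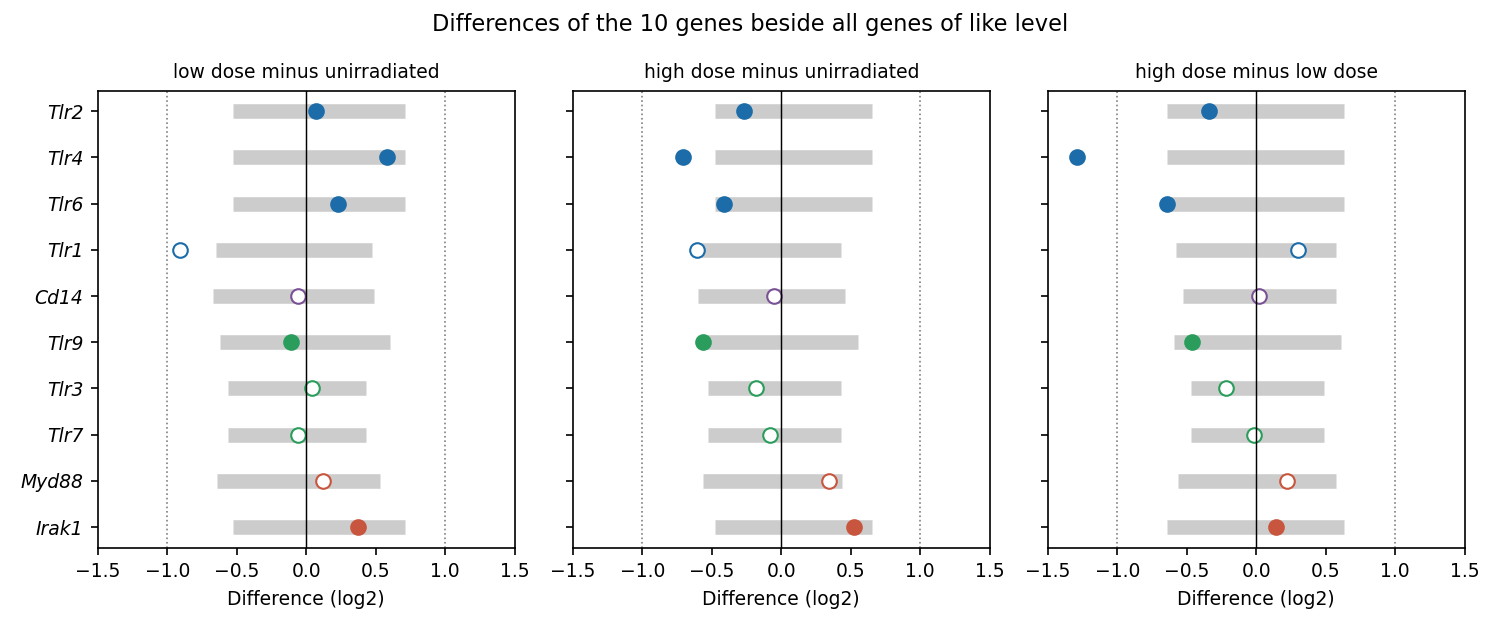
Log2 difference (horizontal axis) of each gene in the 3 comparisons of single arrays. Filled points are past the level minimum and open points below it, grey bars span the central 90% of genes in the same level decile, and dotted lines mark 2-fold; surface receptors are blue, Cd14 purple, endosomal receptors green, Myd88 and Irak1 red. Tlr4 lies outside the bar at 2.5 Gy against both other arrays, and is the one gene past 2-fold, at −1.29 between the doses.

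Around these 10 genes, 86 further genes of the pathway were listed in 7 groups by role, of which 80 were measured and 56 were past the level minimum. At the high dose 11 of the 56 were at least 2-fold higher than unirradiated and 0 lower, against 1.15% and 0.578% of all genes. At the low dose 0 were at least 2-fold different, against 2.47%. The 11 genes were 2 transcription factors, 6 brakes on the pathway and 3 target genes, and no receptor, accessory protein, adaptor or kinase was among them. The brakes Nfkbie and Nfkbib were past the minimum only through the high-dose array, so the count of 11 is partly built in. The lists were drawn up with the NF-κB result of these arrays known, so their direction is not independent evidence.

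Of the other receptor genes Tlr5, Tlr8, Tlr11, Tlr12 and Tlr13, Tlr12 alone was past the minimum, at 5.04, 4.83 and 4.95. Unlike Tlr2, Tlr4, Tlr6 and Tlr9, it was lowest on the low-dose array. Tlr8, a paralog of Tlr7, read 4.67, 4.01 and 3.82, so that both irradiated arrays were lower (−0.66 and −0.84) and below the minimum; it is named for its kinship after its values were seen.

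Accessory proteins load, fold or move the receptors, and 6 of 9 were past the minimum, with a median difference of −0.03 at the high dose. Unc93b1, which escorts TLR3, TLR7 and TLR9 to endosomes, read 4.55, 4.66 and 5.38, an order opposite to that of Tlr9, with a difference of 0.83 at the high dose. Cd180, a TLR-like surface protein, read 7.24, 7.84 and 7.19, and Rftn1, a lipid raft protein, 6.11, 6.80 and 6.49. Both, like Tlr4, were highest at the low dose, at 0.60 and 0.69 above unirradiated. Ly96, which encodes the MD-2 subunit that binds lipopolysaccharide with TLR4, lay below the minimum at 3.44, 4.09 and 4.04, so that its irradiated arrays were both higher; it too is named for its role after its values were seen.

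Genes of the IL-1 receptor family, whose receptors share MyD88 with the Toll-like receptors, gave 3 of 6 measured past the minimum and a median of −0.21 at the high dose. Il1r1, the IL-1 receptor, read 4.87, 4.91 and 4.51, again lowest at the high dose (−0.37). Il1rap, its accessory chain, read 4.90, 5.17 and 5.04, and Il18r1, the IL-18 receptor, 4.84, 4.68 and 4.63.

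Adaptors and kinases between receptor and NF-κB had 14 of 18 measured genes past the minimum, with a median of 0.17 at the high dose and −0.05 at the low dose. At the high dose 9 were above 0 and 5 below, all between −0.39 and 0.44, where 53.4% of all genes were above 0. Irak2, a kinase that acts beside Irak1, read 4.49, 4.25 and 4.93. It was past the minimum only through its high-dose array, so its count among the 9 was partly built in. Traf6, the ubiquitin ligase downstream of the IRAK kinases, read 5.11, 4.49 and 5.04, so that the low-dose array alone was low (−0.61). Tab3, a subunit of the TAK1 kinase complex, read 5.68, 6.24 and 5.64, high on the low-dose array, and Peli2, a ubiquitin ligase of IRAK1, 4.66, 4.91 and 5.08.

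Of the 8 transcription factors past the minimum at the end of the pathway, 2 were at least 2-fold higher at 2.5 Gy. The median of the 8 was 0.66, and 7 were above 0, against 53.4% of all genes. Irf7, an interferon regulator, was at −0.25. Irf5 (4.39, 4.15 and 5.15), named after its values were seen, was past the minimum only through its high-dose array. Its place among the 7 was therefore partly built in. The NF-κB subunit genes Rela (6.18, 6.48 and 7.66) and Nfkb2 (5.04, 4.63 and 6.29) were the 2, higher by 1.47 and 1.26. Rel, another subunit gene, read 5.37, 5.92 and 6.15. Irf3, the interferon regulator used by TRIF, read 5.02, 5.62 and 5.59, so that both irradiated arrays were higher by a like amount (0.59 and 0.57).

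Brakes on the pathway held the largest difference of the 56 genes at the high dose. Of 12 past the minimum, 6 were at least 2-fold higher at the high dose, with a median of 0.68 over the 12. Nfkbie, Nfkbib and Nfkbia, genes of NF-κB inhibitors, were higher by 2.01, 1.42 and 1.39. Nfkbie (4.62, 4.44 and 6.63) and Nfkbib (4.65, 4.44 and 6.08) were past the minimum only through the high-dose array. Their place among the 6 was therefore partly built in. Zfp36, which destabilises inflammatory mRNA, was higher by 1.96, the A20 gene Tnfaip3 by 1.09 and its partner gene Tnip1 by 1.03. The other 6 brakes past the minimum did not reach 2-fold and lay between −0.32 (Socs1) and 0.33 (Irak3). Irak3, an inactive kinase that holds back IRAK signalling, read 5.76, 6.45 and 6.09, highest at the low dose. Rnf216, a ubiquitin ligase of Toll-like receptors, read 5.21, 5.77 and 5.49. Sigirr, an IL-1 receptor relative that dampens signalling, was at 0.01 at the high dose and Tollip, which binds IRAK1, at −0.30; these 2 are named for their role after their values were seen.

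Among genes that Toll-like receptor ligands induce in leukocytes, 3 of 12 past the minimum were at least 2-fold higher at the high dose: the chemokine genes Cxcl2 (1.76), Cxcl10 (1.46) and Ccl3 (1.05). Icam1, an adhesion molecule gene, was higher by 0.90. Cxcl10 was also the one of the 12 most above unirradiated at the low dose (0.82) and Cxcl2 the one most below it (−0.66). The cytokine genes Tnf (5.46, 5.33 and 5.56) and Il6 (2.65, 2.84 and 2.61), named after their values were seen, differed by 0.10 and −0.04 at the high dose. Il6 lay far below the level minimum, so it is not among the 12 and may not have been detected.

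**Figure D3:**
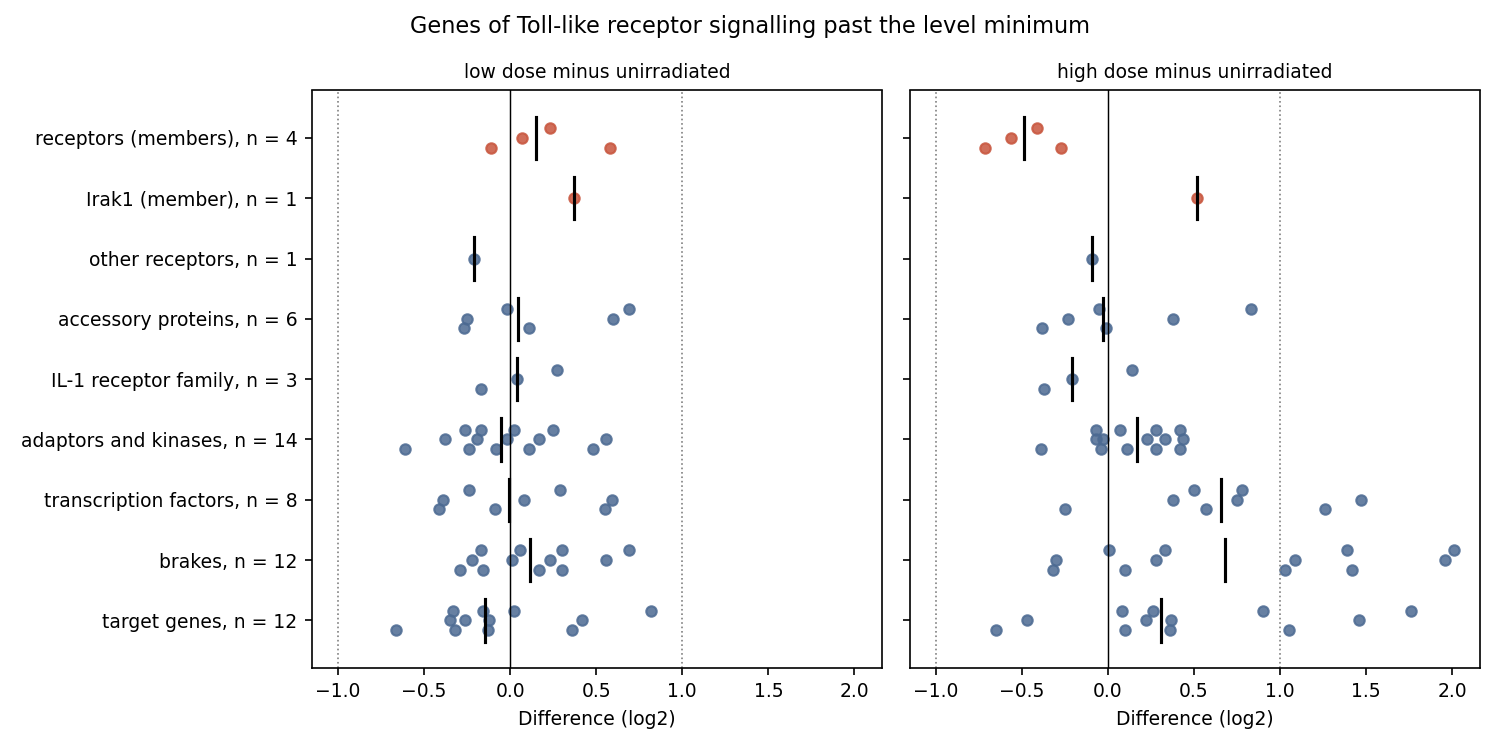
Log2 difference from unirradiated (horizontal axis) at 0.02 Gy (left) and 2.5 Gy (right) for genes past the level minimum, by role; each point is 1 gene on single arrays, the black bar is the group's median, n is the number of genes and dotted lines mark 2-fold. Points are spread vertically for legibility. At 2.5 Gy the 4 receptors lie between −0.71 and −0.27, while 11 of the 56 listed genes (2 transcription factors, 6 brakes and 3 target genes) are past 2-fold higher.

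The promoter windows printed above can be set beside these values. These lists were drawn up with the NF-κB result known, so a contrast by this motif within them is partly built in. Of the listed pathway genes past the minimum and with a promoter sequence, 12 held the NF-κB decamer and 33 did not. The median difference after 2.5 Gy was 1.06 for the 12, with 7 at least 2-fold higher, and 0.23 for the 33, with 4 at least 2-fold higher (1.15% of all genes were). Over all named genes past the minimum with a promoter, the listed ones included, 3.45% of the 464 with the decamer and 0.914% of the 8532 without it were at least 2-fold higher, and the medians were 0.05 and 0.03. Nfkbie, among the 7, and Nfkbib, among the 4 without the decamer, were past the minimum only through the high-dose array. Nfkbia, whose match lies 29 bases before the start, was also among the 7. Tlr2, with its pair of overlapping matches, was at −0.27 instead, above only Il1r1 (−0.37) among the genes with the decamer. Tlr6, Tlr9 and Irak1, without it, were at −0.41, −0.56 and 0.52.

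Markers of myeloid cells, which carry Toll-like receptors, were read beside these results. The 10 neutrophil markers did not move as one. S100a8 (5.57, 6.87 and 6.81) and S100a9 (6.82, 7.94 and 8.38) were at least 2-fold higher on both irradiated arrays, while Ngp (−0.92 and −0.93) and Ly6g (−0.73 and −0.85), which lay below the level minimum, were lower on both. The median difference of the 6 past the minimum was 0.41 at the high dose, and that of all 10 was −0.14. The log2 of the list's summed signal, in which the brightest genes weigh most, was 8.53, 9.19 and 9.34, whereas its median level was 5.01, 4.95 and 4.63 and so lowest at the high dose. The monocyte marker Ly6c2 was 1.04 higher at the high dose. Of the 6 monocyte and macrophage markers past the minimum, 5 were above 0 there, against 53.4% of all genes. The remaining 1, Cd68 (−0.44), was below, and the median of the 6 was 0.22. Adgre1 (4.48, 4.38 and 4.93) and Fcgr1 (4.57, 4.46 and 4.82), named after their values were seen, were past the minimum only through the high-dose array. Their place among the 5 was therefore partly built in. That list's summed signal was 7.81, 7.79 and 7.97. Dendritic cell markers summed to 8.68, 8.69 and 8.75 and B cell markers to 6.71, 6.63 and 6.70, while the stem cell list gave 10.18, 10.42 and 10.27. Log2 array values have no true zero, so no marker is at 0; the part of other cells in the receptor values was not tested.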

How the data were processed

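RNA of sorted stem cells was labelled with biotin by the Affymetrix whole-transcript sense kit and hybridised to 3 arrays, per the labels' protocols. The authors deposited 1 log2 value per probe set and array. The log2 scale was read from the values (1.55 to 12.4); background correction, normalization and summarisation are not stated in the labels, and Partek is named without a role, per the submitters' processing notes. Unequal array medians show that the deposited arrays do not share one distribution. Probe sets are named by Entrez gene; names came from the platform annotation, updated through RefSeq, and 2021 probe sets without a name stayed out. Differences, counts and medians were computed in Python 3.11.15 with pandas 2.3.3 and numpy 2.4.6, with a level minimum of 4.553; scaling used statsmodels 0.14.6 for loess (span 0.3). With 1 array per dose no test was run, and their number limits precision. Spans of genes of like level describe genes, not replicates.

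The genes, lists, motif and fold size were chosen with earlier results of these data known. Of 149 listed pathway and marker symbols, 136 were measured. Named were all 10 genes; from each pathway list those past 2-fold and the 2 largest differences at each dose; from each marker list those past 2-fold; and the 3 genes nearest in pattern to the most variable member. Others are marked in the text or stand for a role. The counting and scaling steps were checked on simulated data.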

Additional observations from a re-analysis of the deposited data

How the results depend on the processing

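No paired analysis was possible because there was a single array at every dose. The settings tried were fold sizes of 1.5 and 3, loess, median centring, quantile normalization, means in place of medians, and a level minimum left out or raised to the 75th percentile. A value is said to have moved here if it shifted by over 0.1. Without the level minimum, which adds the 5 low genes, the median difference of the Toll-like receptor genes was 0.05 at the low dose, −0.23 at the high dose and −0.12 between the doses. The mean at the high dose was −0.29. At 1.5-fold, 1 gene (Tlr4) was called at the high dose and 2 (Tlr4 and Tlr6) between the doses. At 3-fold 0 were called between the doses. Tlr4 at the low dose lay just short of 1.5-fold as deposited (0.58). It was past 1.5-fold after median centring (0.65) and short of it after quantile normalization (0.48) and loess (0.52). The other medians stayed within 0.1 and kept their sign. Of 30 single differences, quantile normalization moved 1 by over 0.1 (Tlr4 at the low dose, 0.48), and median centring and loess moved 0. Signs turned for 4, 2 and 2 values, all at most 0.07 in size as deposited. Median centring moved the median of all genes at the low dose from 0.04 to 0.11. Signal over background is unknown, which limits Tlr1, Tlr3, Tlr7, Cd14 and Myd88 most.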
